A study of Mus musculus with 12 samples.

Results

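Transcript levels of 6 genes were followed across 4 vector combinations in the mouse T cell leukemia line 8946. The genes were chosen by name as the rows for the E protein genes Tcf3, Tcf12 and Tcf4 and the Id inhibitor genes Id1, Id2 and Id3. They are 6 of the 23284 gene symbols in the deposited tables, and all 6 had a mean of at least 1 FPKM (sequenced fragments scaled by transcript length and by the mapped fragments of the library), the level required for testing. Every group was the same line, co-transduced with a pair of retroviruses and sorted for the GFP and NGFR markers they carry. The control group received the empty MigR1 and empty NGFR vectors. In the Zmiz1 group the empty MigR1 vector was combined with Zmiz1-IRES-NGFR, which encodes the transcriptional coactivator ZMIZ1. In the Notch1 group L1601P-IRES-GFP, which encodes a mutant Notch1, was combined with the empty NGFR vector, and the Notch1+Zmiz1 group received both genes. There were 3 libraries per group, and the labels do not say whether they came from separate transductions, so the p-values measure the spread between these libraries, which may be technical. All results are for this 1 line with genes expressed from retroviral vectors.

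E proteins are basic helix-loop-helix transcription factors that bind DNA as dimers at the E-box motif and drive early T cell development. Id proteins have the dimerization helices but no DNA-binding region, so an E protein paired with an Id protein cannot bind the E-box. In the thymus, signals through the pre-T cell receptor raise Id3 and lower E protein activity, and loss of E protein activity is a known route to T cell leukemia in mice. Tcf3 encodes E2A and Tcf12 encodes HEB, the main E proteins of thymocytes, while Tcf4 encodes the E protein best known from plasmacytoid dendritic cells and is not the gene of the Wnt effector with a similar name.

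The group names follow the sample titles and the column headers. A further label, that of the cell line, swaps the Zmiz1 and Notch1 groups, but the levels of the vector genes matched the titles. Mean Zmiz1 FPKM was 0.176 in the control group, 70.8 in the Zmiz1 group, 0.212 in the Notch1 group and 49.3 in the Notch1+Zmiz1 group, and mean Notch1 FPKM was 1.89, 2.102, 32.1 and 35.6 in the same order. Mean FPKM of Ngfr, the gene named as the NGFR marker, was 85.2, 7.43, 72.9 and 5.64 in that order. The Zmiz1 transcript was lower in the Notch1+Zmiz1 group than in the Zmiz1 group (log2 fold change -0.51, limma adjusted p = 3.12e-04). The part of these unequal vector levels in the results below was not tested. All 12 T cell marker genes were above 1 FPKM, with a summed level of 6176 to 7416 FPKM per library. Some markers of other cell types were also above that level. Of the B cell markers, 0 of 8 passed 1 FPKM, with Ms4a1 listed at 0 in all 12 libraries. Of 7 plasmacytoid dendritic cell markers 3 passed (Bst2, with a mean of 24.6 FPKM, Ccr9 and Cox6a2), of 9 NK and innate lymphoid markers 2 passed (Zbtb16 and Prf1), and of 6 erythroid markers Epor alone passed. Among 7 myeloid markers, Itgam and Cd68 passed and Cebpa was listed at 0. The summed myeloid level was 93.6 to 103 FPKM in the control and Zmiz1 libraries and 53.3 to 63.3 FPKM in the 2 groups with Notch1, most of it Itgam (mean 77.8 FPKM over the 12 libraries), and its part in the results below was not tested. The files give no read counts, so the depth is unknown and no counting interval can be given. The deposited FPKM summed to between 549098 and 606908 per library. Replicate 2 of the Zmiz1 group stood apart, with a mean correlation of 0.942 with the remaining libraries, the lowest of the 12 (the highest was 0.957), and the lowest relative depth, 0.767 on a scale of 0.767 to 1.23 estimated roughly from the steps between low values, and its effect is given beside the results whose call it changes or whose size it moves most. With 3 libraries per group the smallest p an exact permutation test allows is 0.1, so differences were tested with limma, which shares its estimate of the spread across genes.

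Upstream windows were looked up for 5 members, and sequence is printed for Tcf3, Tcf12 and Id2, where an E-box, the motif that E proteins bind, lay outside annotated exons. RefSeq windows of 250 bases before the transcription start (GRCm38.p6) matched 4 of the 5 members looked up, at 6 start sites, with none for Id1. The E-box CANNTG (the same on both strands) occurred 1 time before the Tcf3 start (CACTTG at -54, counted from the start site to the first base), 1 time before the first Tcf12 start (CAGCTG at -240), 1 time before the second (CAAGTG at -149), 0 times before the third, 1 time before the Id2 start (CAGCTG at -196) and 0 times before the Id3 start. Over all 32851 RefSeq windows of this length, 66.2% held at least 1 E-box, so its presence is common. The core TGGGAA bound by the Notch effector RBPJ and the core GCGNGGGCG bound by EGR factors, each searched on both strands, were found 0 times in the 6 windows, against 21.6% and 4.70% of all windows. The stretches below are the parts of 3 windows that lie outside annotated exons, 5′ to 3′ on the gene's strand, with the E-box in capitals. The stretch for Tcf3 is chr10:80433648-80433885 (minus strand), upstream of the gene at chr10:80409514-80433647. The stretch for Tcf12 is chr9:72111872-72112069 (minus strand), upstream of the gene at chr9:71842688-72111871. The stretch for Id2 is chr12:25096254-25096342 (minus strand), which lies in an intron of a longer annotated Id2 transcript within the gene at chr12:25093799-25097140. Id1 lies at chr2:152736251-152737410 and Id3 at chr4:136143497-136145755, both on the plus strand.
Tcf3: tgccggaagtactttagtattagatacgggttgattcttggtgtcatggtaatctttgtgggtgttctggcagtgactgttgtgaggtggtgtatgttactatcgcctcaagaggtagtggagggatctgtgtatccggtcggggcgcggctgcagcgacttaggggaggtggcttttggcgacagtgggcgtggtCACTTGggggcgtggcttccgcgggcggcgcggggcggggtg
Tcf12: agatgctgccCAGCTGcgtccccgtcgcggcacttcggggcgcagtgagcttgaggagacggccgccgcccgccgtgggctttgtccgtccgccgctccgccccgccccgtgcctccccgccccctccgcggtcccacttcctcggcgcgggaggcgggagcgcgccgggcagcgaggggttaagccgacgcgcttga
Id2: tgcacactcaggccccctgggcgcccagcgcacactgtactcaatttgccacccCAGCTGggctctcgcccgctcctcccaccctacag

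FPKM is scaled by transcript length, so levels can be compared between genes. In bulk RNA, fewer cells with a transcript and less of it per cell cannot be told apart. Tcf12 was the highest with a mean of 273 FPKM over the 12 libraries, above 97.1% of the 10152 genes tested. Id3 followed at 132 FPKM, Tcf3 at 103 FPKM and Id2 at 23.2 FPKM. Id1 at 4.86 FPKM and Tcf4 at 2.89 FPKM were low, above 18.8% and 10.9% of genes tested, and the fourth Id gene, Id4, was listed at 0 in all 12 libraries. The highest library exceeded the lowest by 1.25-fold for Tcf3, 1.40-fold for Tcf12 and for Tcf4, 1.499-fold for Id2, 2.35-fold for Id1 and 2.88-fold for Id3. The Id3 range was 1.63-fold without Zmiz1 replicate 2, and the other 5 ranges were the same. The plot of FPKM by library shows these values.

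**Figure D1:**
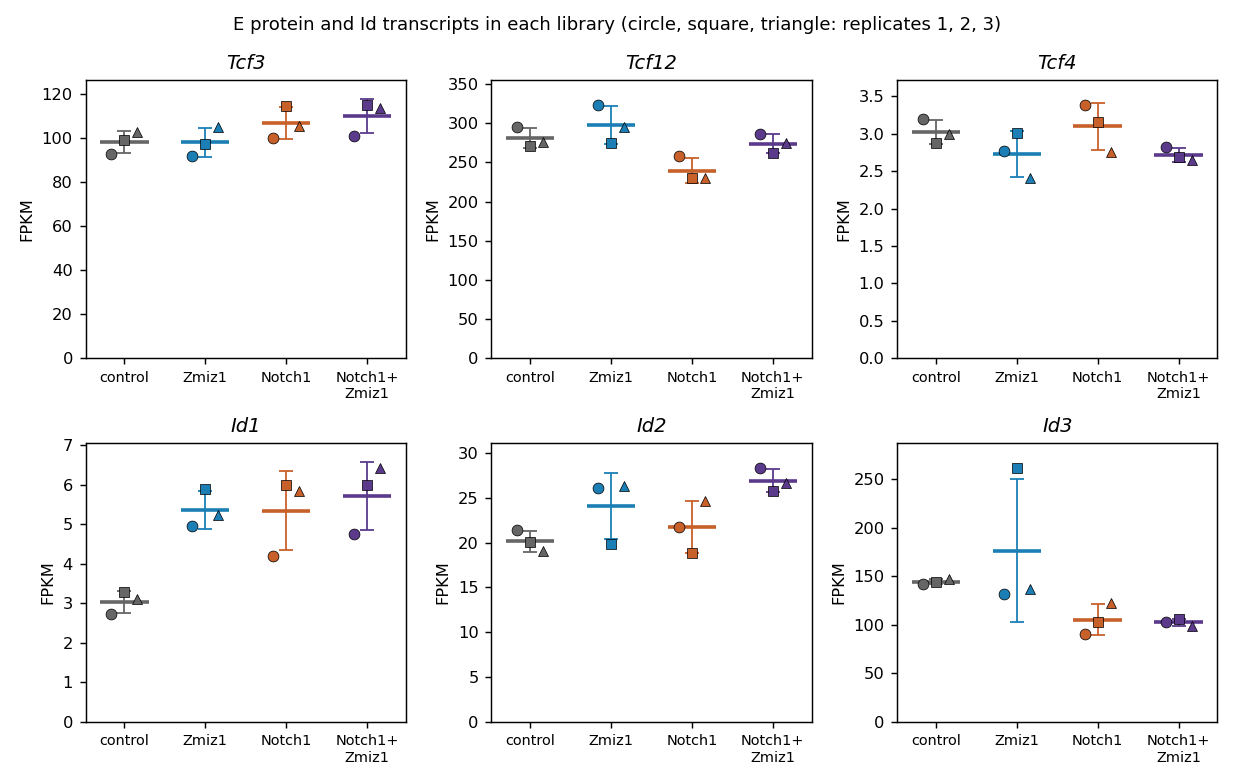
FPKM (vertical axes, from 0) of the 6 genes in each of the 12 libraries by group; symbols are replicates 1 to 3, horizontal lines are group means and bars are ± 1 SD (n = 3). The 3 control libraries lie below every other library for Id1, the 3 Notch1 libraries lie lowest for Tcf12, and replicate 2 of the Zmiz1 group lies far above the rest for Id3.

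A difference was called when the limma p-value, adjusted by the Benjamini-Hochberg method over all 10152 genes, was under 0.05. In Notch1 against control, 1 of the 6 members was called (Id1, higher), where 5.49% of all genes were called. In Zmiz1 against control, 1 member was called (Id1, higher), where 2.11% of all genes were called. In Notch1+Zmiz1 against control, 1 member was called (Id1, higher), where 6.46% of all genes were called. These 3 comparisons share the same 3 control libraries. In Notch1 against Zmiz1, 1 member was called (Tcf12, lower in Notch1), where 10.9% of all genes were called. At an unadjusted limma p under 0.05 there were 2 members in Notch1 against control and 1 in Zmiz1 against control. There were 3 in Notch1+Zmiz1 against control and 2 in Notch1 against Zmiz1. No member was called by limma in Notch1+Zmiz1 against Zmiz1, where 3.86% of all genes were called. There, 1 member (Id3) had an unadjusted p under 0.05, and 6.66% of all genes had a p as low or lower. No member was called by limma in Notch1+Zmiz1 against Notch1, where 1.51% of all genes were called. There, 2 members had an unadjusted p under 0.05, Tcf12 and Id2. Of all genes, 5.84% had a p as low as that of Tcf12 or lower, and 6.13% as low as that of Id2 or lower. The interaction asks whether the effects of the vectors add on the log2 scale. There, 0 members were called by limma, where 0.0690% of all genes were called. An unadjusted p under 0.05 was found for 1 member (Id1), and 0.729% of all genes had a p as low or lower. The share of all genes with an unadjusted p under 0.05 is not given here, so these counts have no baseline. One call among 6 genes is 1 gene, and no statement on the family as a whole rests on these counts. The median log2 fold change of the members was 0.06 in Notch1 against control, 0.15 in Zmiz1 against control and 0.06 in Notch1+Zmiz1 against control, beside 0.02, 0.00166 and 0.02 over all genes tested. The members' median in Zmiz1 against control was 0.07 without Zmiz1 replicate 2.

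**Figure D2:**
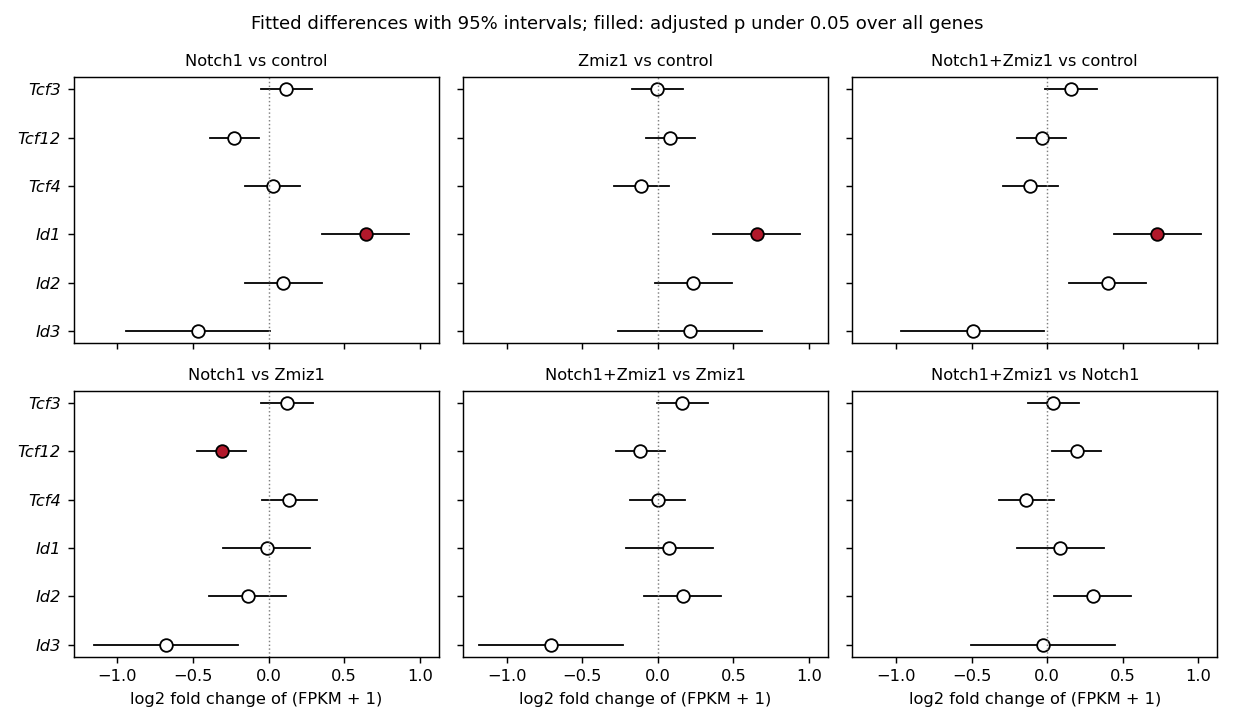
Difference in log2(FPKM + 1) between groups for the 6 genes in each of 6 pairwise comparisons, as the fitted value with its 95% interval; filled points have an adjusted p under 0.05. Id1 is filled in the 3 comparisons with control and Tcf12 is filled in Notch1 against Zmiz1.

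Tcf12, the most abundant E protein transcript, was lowest in the Notch1 group. Its level was 295, 271 and 276 FPKM in the control libraries, 323, 275 and 296 FPKM in the Zmiz1 libraries, 258, 231 and 230 FPKM in the Notch1 libraries, and 286, 262 and 274 FPKM in the Notch1+Zmiz1 libraries. All 3 Notch1 libraries lay below the 9 others, while the other 3 groups overlapped. Tcf12 fell from 298 ± 24.4 FPKM (SD, n = 3) in the Zmiz1 group to 240 ± 15.8 FPKM in the Notch1 group, a log2 fold change of -0.31 (SE 0.0733, 95% interval -0.47 to -0.15, limma adjusted p = 0.0209). The call was lost without Zmiz1 replicate 1 (adjusted p = 0.0631), Notch1 replicate 2 (adjusted p = 0.0698) or Notch1 replicate 3 (adjusted p = 0.0648), and with the 2 groups fitted alone (adjusted p = 0.155). Without Zmiz1 replicate 2 the log2 fold change was -0.37 (limma adjusted p = 0.0115). Against the control mean of 281 ± 12.8 FPKM, the Notch1 mean differed by -14.6%, a log2 fold change of -0.23 that missed the threshold (95% interval -0.39 to -0.07, limma adjusted p = 0.110). The Notch1+Zmiz1 group, at 274 ± 11.9 FPKM, lay above all Notch1 libraries, with a log2 fold change of 0.19 against Notch1 that was not called (95% interval 0.03 to 0.36, limma adjusted p = 0.395). Against control its log2 fold change was -0.03 (95% interval -0.20 to 0.13). A fit with a replicate block, given at the end, called Tcf12 lower in Notch1 than in control and than in Notch1+Zmiz1.

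Tcf3, which encodes E2A, varied little. Its level was 92.5, 99.2 and 103 FPKM in control, 91.6, 97.4 and 105 FPKM in Zmiz1, 99.9, 114 and 106 FPKM in Notch1, and 101, 115 and 114 FPKM in Notch1+Zmiz1. The highest values were in the 2 groups with Notch1, but neighbouring groups overlapped throughout the order Zmiz1, control, Notch1 and Notch1+Zmiz1. No Tcf3 difference was called. Its log2 fold change was 0.12 in Notch1 against control (95% interval -0.05 to 0.29, limma adjusted p = 0.475) and 0.16 in Notch1+Zmiz1 against control (95% interval -0.01 to 0.33, limma adjusted p = 0.303). In Zmiz1 against control the interval was -0.17 to 0.17.

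Tcf4 was present at a low level in every library. It was measured at 3.19, 2.87 and 2.99 FPKM in control, 2.77, 3.01 and 2.41 FPKM in Zmiz1, 3.38, 3.15 and 2.76 FPKM in Notch1, and 2.83, 2.69 and 2.65 FPKM in Notch1+Zmiz1. Groups next to each other in the order of means overlapped. The Notch1+Zmiz1 libraries (up to 2.83 FPKM) lay just below all control libraries (from 2.87 FPKM). That difference was not called (log2 fold change -0.11, limma adjusted p = 0.541). The 6 pairwise log2 fold changes lay between -0.14 and 0.14, with no adjusted p under 0.323 in limma. In Notch1 against Zmiz1 the value was 0.19 without Zmiz1 replicate 2 (limma adjusted p = 0.178). Of the 7 plasmacytoid dendritic cell markers, Bst2 averaged 24.6 FPKM, Ccr9 3.92 FPKM, Cox6a2 3.44 FPKM and Siglech 0.0127 FPKM; their part in the Tcf4 level was not tested.

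Id1, an inhibitor of E proteins and a classical target of BMP signalling, was lowest in the control group and at like levels in the other 3. Its level was 2.73, 3.28 and 3.10 FPKM in control, 4.94, 5.90 and 5.23 FPKM in Zmiz1, 4.19, 5.99 and 5.84 FPKM in Notch1, and 4.76, 5.99 and 6.41 FPKM in Notch1+Zmiz1. All 9 libraries with a vector gene lay above the 3 controls, and the 9 overlapped each other. The mean rose from 3.04 ± 0.284 FPKM (SD, n = 3) in control to 5.34 ± 1.00 FPKM in the Notch1 group, 1.76-fold (log2 fold change 0.64, SE 0.130, limma adjusted p = 0.0173). It rose to 5.36 ± 0.489 FPKM in the Zmiz1 group, 1.76-fold (log2 fold change 0.65, SE 0.130, limma adjusted p = 0.0291). It rose to 5.72 ± 0.860 FPKM in the Notch1+Zmiz1 group, 1.88-fold (log2 fold change 0.73, SE 0.130, limma adjusted p = 0.00729). These log2 fold changes are of FPKM + 1 and understate the change of a gene this low; with a pseudocount of 0.1 they were 0.78, 0.80 and 0.88.

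The libraries behind these calls carried them unequally, as the plot of adjusted p without each library shows. The Notch1+Zmiz1 call held without each of the 12 libraries in turn. The Notch1 call was lost without control replicate 1 (limma adjusted p = 0.0736), control replicate 3 (0.0585), Notch1 replicate 2 (0.0662) or Notch1 replicate 3 (0.0664). The Zmiz1 call was lost without any 1 of the 3 control libraries (limma adjusted p = 0.117, 0.0837 and 0.112 for replicates 1, 2 and 3) or of the 3 Zmiz1 libraries (0.0556, 0.0821 and 0.0689), and without Notch1+Zmiz1 replicate 2 (0.0508). No further difference in Id1 was called where the second gene was added to the first. The log2 fold change was 0.07 in Notch1+Zmiz1 against Zmiz1 (95% interval -0.21 to 0.36, limma adjusted p = 0.824) and 0.09 in Notch1+Zmiz1 against Notch1 (95% interval -0.20 to 0.38, limma adjusted p = 0.982). The interaction for Id1 was -0.57 on the log2 scale (SE 0.184, 95% interval -0.97 to -0.16); its unadjusted p was 0.0108 and its limma adjusted p 0.999, so it was not called.

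**Figure D3:**
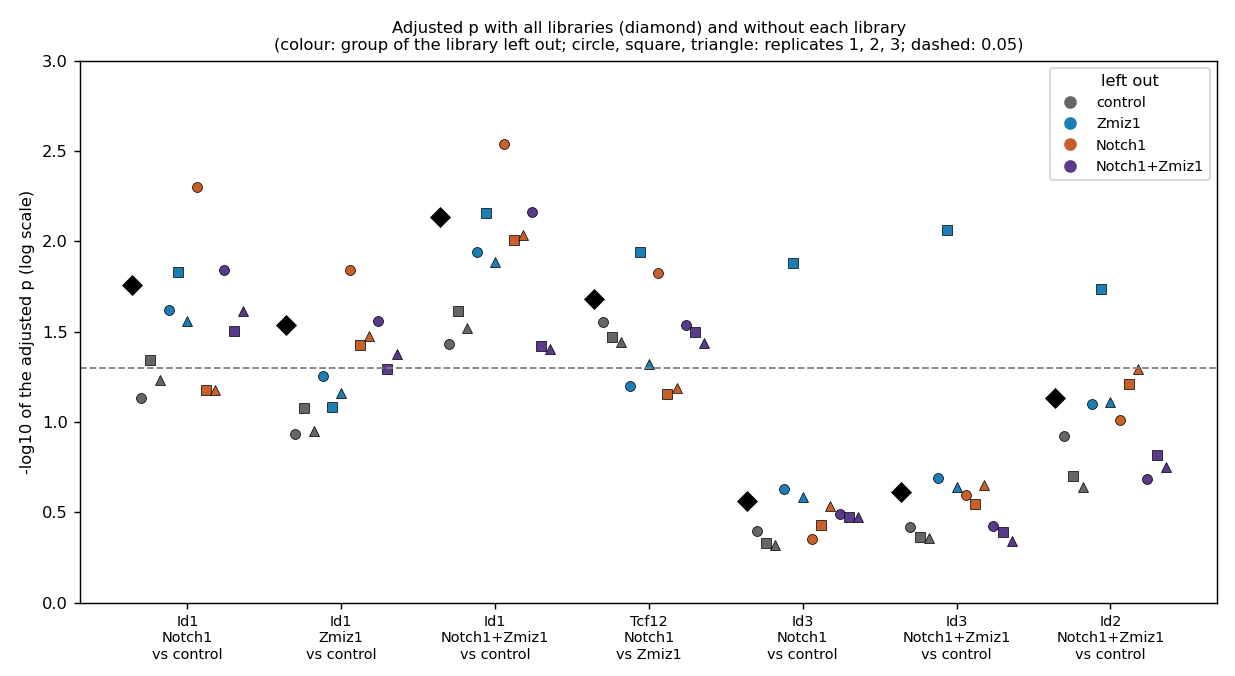
Adjusted p of 7 differences (horizontal axis) on a -log10 scale, with all 12 libraries (diamonds) and without each library in turn (colour gives the group left out, symbol the replicate); the dashed line is 0.05. Id1 in Notch1+Zmiz1 against control stays above the line throughout, while the 2 Id3 differences shown, both against control, cross it only when Zmiz1 replicate 2 is left out.

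Id2, the inhibitor best known from innate lymphoid cells, had its highest mean in the Notch1+Zmiz1 group. It was measured at 21.4, 20.1 and 19.1 FPKM in control, 26.1, 19.9 and 26.3 FPKM in Zmiz1, 21.7, 18.9 and 24.7 FPKM in Notch1, and 28.3, 25.8 and 26.6 FPKM in Notch1+Zmiz1. The Notch1+Zmiz1 libraries lay above all control and Notch1 libraries and overlapped the Zmiz1 libraries. Their mean was 33.4% above control, at 26.9 ± 1.27 against 20.2 ± 1.16 FPKM, a log2 fold change of 0.40 that was not called (SE 0.116, 95% interval 0.14 to 0.66, limma adjusted p = 0.0735). Without Zmiz1 replicate 2 the same difference was called higher (limma adjusted p = 0.0184). Against Notch1 the log2 fold change was 0.30 (95% interval 0.05 to 0.56, limma adjusted p = 0.408). In Zmiz1 against control it was 0.24 (95% interval -0.02 to 0.49, limma adjusted p = 0.445), and 0.36 without Zmiz1 replicate 2 (95% interval 0.14 to 0.58, limma adjusted p = 0.113). Of the 9 NK and innate lymphoid markers, Zbtb16 averaged 7.88 FPKM and Prf1 1.93 FPKM, and Ncr1, Klrd1, Klrk1 and Nkg7 were listed at 0 in all 12 libraries; their part in the Id2 level was not tested.

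Id3, the most abundant Id transcript and a target of pre-T cell receptor signals, was lower in all 6 libraries with Notch1 than in all 6 without it. Its level was 142, 144 and 147 FPKM in control, 132, 261 and 137 FPKM in Zmiz1, 90.5, 103 and 122 FPKM in Notch1, and 103, 106 and 98.8 FPKM in Notch1+Zmiz1. Zmiz1 replicate 2 was nearly 2-fold above every other library of its group and widened the spread estimated for Id3 in every comparison. In the main fit, which includes it, no Id3 difference was called. The Notch1 mean of 105 ± 15.9 FPKM differed by -27.3% from the control mean of 144 ± 2.68 FPKM (log2 fold change -0.47, SE 0.215, limma adjusted p = 0.274), and the Notch1+Zmiz1 mean of 102 ± 3.43 FPKM by -29.1% (log2 fold change -0.49, limma adjusted p = 0.245). Without Zmiz1 replicate 2 both log2 fold changes stayed the same, the SE fell to 0.0912, and both were called lower (limma adjusted p = 0.0131 and 0.00864). In that fit 989 genes were called in Notch1 against control and 1090 in Notch1+Zmiz1 against control, beside 557 and 656 with all libraries.

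The comparisons that use the Zmiz1 group changed in size with that library. Id3 in Notch1 against Zmiz1 had a log2 fold change of -0.68 with all libraries (limma adjusted p = 0.0715) and -0.36 without Zmiz1 replicate 2 (limma adjusted p = 0.0545). In Notch1+Zmiz1 against Zmiz1 it was -0.71 (limma adjusted p = 0.115) and -0.39 without that library (limma adjusted p = 0.0755). Without Zmiz1 replicate 1 instead, the Notch1 against Zmiz1 difference was -0.85 and was called lower (limma adjusted p = 0.0413). In Zmiz1 against control the direction itself turned, from 0.21 (limma adjusted p = 0.741) to -0.11 (limma adjusted p = 0.848). Notch1+Zmiz1 against Notch1 differed by -0.03 (95% interval -0.51 to 0.45).

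Summed by family, the E protein transcripts came to 382 ± 8.95 FPKM in control, 398 ± 21.6 in Zmiz1, 349 ± 11.2 in Notch1 and 387 ± 6.05 in Notch1+Zmiz1 (SD, n = 3). The Id transcripts summed to 168 ± 1.70 FPKM in control, 206 ± 70.2 in Zmiz1, 132 ± 18.5 in Notch1 and 135 ± 2.85 in Notch1+Zmiz1. The ratio of E protein to Id transcripts is a description and has no test. It was 2.28 ± 0.0672 in control, 2.68 ± 0.442 in Notch1 and 2.86 ± 0.1002 in Notch1+Zmiz1, and 2.57, 1.31 and 2.40 in the 3 Zmiz1 libraries. The Notch1+Zmiz1 libraries (2.76 to 2.96) lay above the control libraries (2.23 to 2.35), while the Notch1 libraries (3.10, 2.73 and 2.22) overlapped them. The Zmiz1 means without replicate 2 were 410 FPKM for the E protein sum, 165 FPKM for the Id sum and 2.48 for their ratio. Transcript sums say nothing of protein levels, which were not measured here.

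The make-up of each family is given as shares of its summed FPKM, as a description with no test, and the stacked plot shows the sums. Tcf12 held 73.5% of E protein FPKM in control, 74.7% in Zmiz1, 68.6% in Notch1 and 70.9% in Notch1+Zmiz1. Tcf3 held 25.7%, 24.6%, 30.6% and 28.4% in the same order, and Tcf4 held under 1% in every group. Among the Id transcripts, Id3 held 86.2% in control, 84.4% in Zmiz1, 79.4% in Notch1 and 75.8% in Notch1+Zmiz1. Id2 held 12.03%, 12.9%, 16.5% and 19.9% in the same order, and Id1 held 1.81%, 2.73%, 4.04% and 4.24%. In Zmiz1 without replicate 2 the shares were 81.1% for Id3, 15.8% for Id2 and 3.07% for Id1. So the Id1 rise, the one Id change called in the main fit with all libraries, concerned the rarest of the 3 measured Id transcripts. In Notch1+Zmiz1 against control, the fit with a replicate block, given at the end, also called Id2. The fit of those compared groups alone, also given there, called Id2 and Id3 as well. The ratio of Id3 to Id2 was 7.19 in control, 4.85 in Notch1 and 3.81 in Notch1+Zmiz1, and 5.04, 13.1 and 5.199 in the 3 Zmiz1 libraries.

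**Figure D4:**
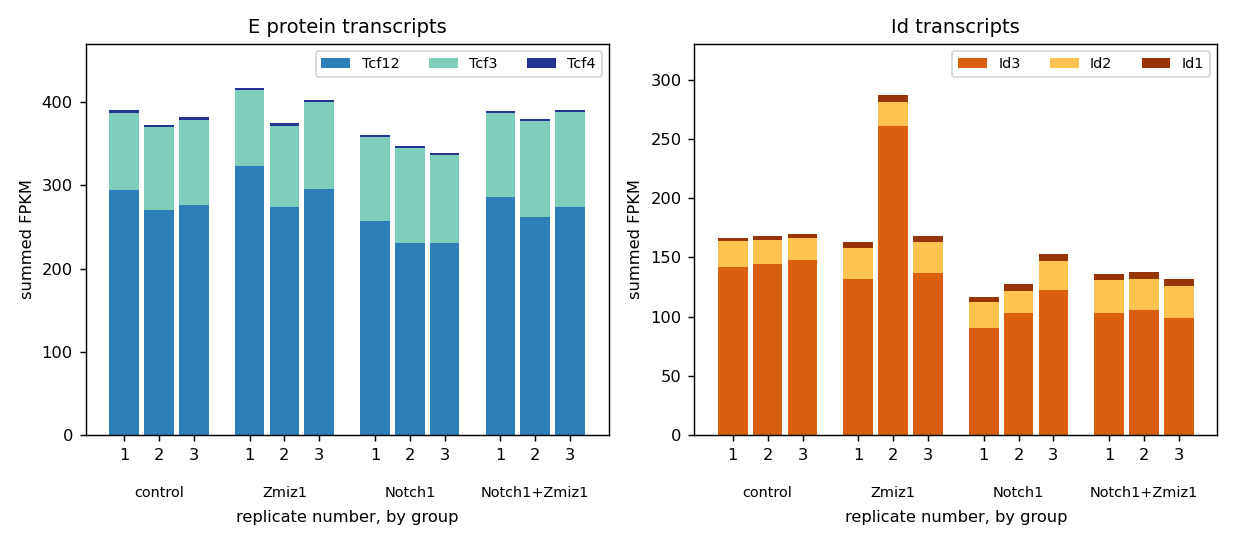
Summed FPKM of the E protein transcripts (left) and Id transcripts (right) in each library, stacked by gene, with axes from 0 and replicates grouped by vector combination. Tcf12 and Id3 make up most of each bar, and the tall Id bar is Zmiz1 replicate 2.

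The 4 lists of genes around the family were then counted in the same fit. The lists were chosen with earlier results of these data known, so the share of all genes is not an unbiased baseline for them. Their counts are to be read beside the share of all genes called with all libraries, 5.49% in Notch1 against control, 2.11% in Zmiz1 against control and 6.46% in Notch1+Zmiz1 against control. These shares were 9.74%, 2.33% and 10.7% without Zmiz1 replicate 2. In Notch1+Zmiz1 against Zmiz1, Notch1+Zmiz1 against Notch1 and Notch1 against Zmiz1 they were 3.86%, 1.51% and 10.9% with all libraries and 4.24%, 3.01% and 10.9% without that one. All these shares are at the adjusted threshold. List counts at an unadjusted p under 0.05 have no such share beside them and cannot be read against these. The first held 15 genes known as E protein targets or E protein-dependent genes in T cells, of which 14 were tested and Hes1 was listed at 0 in all libraries. In Notch1 against control 2 rose and 1 fell, and in Zmiz1 against control 1 rose and 0 fell. In Notch1+Zmiz1 against control 3 rose and 0 fell. Ptcra, which encodes the pre-T cell receptor alpha chain and is also a Notch target, rose from 0.555 ± 0.152 FPKM in control to 5.29 ± 0.805 FPKM in Notch1 (log2 fold change 2.01, limma adjusted p = 4.89e-06). That log2 fold change is of FPKM + 1 and understates the change of a gene this low in control. Il7r, the interleukin-7 receptor gene, fell from 53.0 ± 2.59 FPKM in control to 29.6 ± 2.44 FPKM in Notch1 (log2 fold change -0.82, limma adjusted p = 1.71e-04) and rose to 129 ± 11.5 FPKM in Zmiz1 (log2 fold change 1.26, limma adjusted p = 1.01e-05). The third gene called in Notch1 against control was Rag2, a V(D)J recombinase gene, named outside the naming rule because it completes the count. Its log2 fold change was 0.67 (limma adjusted p = 0.0103), lost without control replicate 2 (adjusted p = 0.0524). The list's median log2 fold change was 0.09 in Notch1 against control and 0.03 in Zmiz1 against control, or 0.00914 in the latter without Zmiz1 replicate 2.

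In the other comparisons the target list had 1 gene higher and 1 lower in Notch1+Zmiz1 against Zmiz1, 1 higher and 1 lower in Notch1+Zmiz1 against Notch1, and 2 higher and 1 lower in Notch1 against Zmiz1. In the interaction 0 were called by limma, and 2 had an unadjusted p under 0.05. Without Zmiz1 replicate 2 the counts were 2 higher and 2 lower in Notch1 against control and 5 higher and 0 lower in Notch1+Zmiz1 against control. They were 2 higher and 1 lower in Notch1+Zmiz1 against Zmiz1 and 3 higher and 2 lower in Notch1 against Zmiz1.

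The second list held 19 partners of E proteins and members of their complexes, and only 4 were tested: Cbfa2t2, Ldb1, Lmo4 and Runx1. Of the others, 10 were under the filter and 5 (Msc, Twist1, Bhlhe41, Lmo1 and Id4) were listed at 0 in all libraries. Tal1, Lyl1 and Lmo2, leukemia-associated genes of this list, were near 0, with means of 0.0225, 0.132 and 0.105 FPKM. Runx1, among the tested genes, averaged 54.2 FPKM. Lmo4, a LIM-only adaptor protein gene, rose from 57.0 ± 3.21 FPKM in control to 105 ± 10.5 FPKM in Notch1 (log2 fold change 0.87, limma adjusted p = 9.04e-04) and to 126 ± 10.9 FPKM in Notch1+Zmiz1 (log2 fold change 1.13, limma adjusted p = 1.40e-04). Its level in Zmiz1 was 78.8 ± 11.05 FPKM, a log2 fold change of 0.45 against control that was not called (limma adjusted p = 0.0641). Lmo4 was the 1 tested gene called in 4 of the 6 pairwise comparisons, the others being Notch1+Zmiz1 against Zmiz1 (limma adjusted p = 0.00518) and Notch1 against Zmiz1 (limma adjusted p = 0.0328, lost in 6 of the 12 fits without 1 library). In Zmiz1 against control and Notch1+Zmiz1 against Notch1, limma called 0 of the 4, and 1 had an unadjusted p under 0.05 in each. In the interaction 0 were called by limma, and 0 had an unadjusted p under 0.05. The median log2 fold change of the 4 was 0.08 in Notch1 against control and 0.05 in Zmiz1 against control, or 0.10 in the latter without Zmiz1 replicate 2. Cbfa2t3, a corepressor gene under the filter, was called higher in Zmiz1 against control in a fit without the filter (0.103 to 0.317 FPKM, limma adjusted p = 0.0340). In that fit it was also called higher in Notch1+Zmiz1, at 0.540 FPKM, than in control (limma adjusted p = 4.28e-04), Zmiz1 (0.0416) and Notch1 (0.0111), all at levels where FPKM is imprecise.

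The third list held 18 genes of signals known to act on Id genes, among them EGR factors and the BMP and TGF-beta receptors and SMAD proteins, of which 8 were tested. In Notch1 against control 0 rose and 1 fell, and in Notch1 against Zmiz1 0 rose and 3 fell. Smad3, a signal transducer of TGF-beta receptors, fell from 79.2 ± 0.617 FPKM in control to 58.6 ± 3.67 FPKM in Notch1 (log2 fold change -0.43, limma adjusted p = 0.00404). The other 2 genes that were lower in Notch1 than in Zmiz1 were Smad4 (limma adjusted p = 0.0312) and Smad7 (limma adjusted p = 0.0174), named to complete the count. Both calls were lost without Notch1 replicate 3, at 0.108 and 0.0530. In the interaction 0 were called by limma and 1 had an unadjusted p under 0.05. In the 4 remaining pairwise comparisons limma called 0 of the 8 tested genes, with an unadjusted p under 0.05 for 1 in Zmiz1 against control, 3 in Notch1+Zmiz1 against control, 3 in Notch1+Zmiz1 against Zmiz1 and 1 in Notch1+Zmiz1 against Notch1. Nab1, under the filter, was called higher in Notch1+Zmiz1 against control in the fit without the filter (0.0594 to 0.128 FPKM, limma adjusted p = 0.0424). With Zmiz1 replicate 2 left out, 2 of the 8 fell in Notch1 against control, 2 in Notch1+Zmiz1 against control and 2 in Notch1+Zmiz1 against Zmiz1, 2 were lower in Notch1 than in Zmiz1, and 1 was higher in Notch1+Zmiz1 than in Notch1. The list's median log2 fold change was -0.14 in Notch1 against control and 0.11 in Zmiz1 against control, or 0.06 in the latter without Zmiz1 replicate 2. Egr1 averaged 0.685 FPKM and Egr2 0.0455 FPKM, and Egr3 and Bmpr1b were listed at 0 in all libraries.

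The fourth list held 12 genes for the turnover and coactivators of E and Id proteins, of which 11 were tested. In Notch1 against control 1 rose and 0 fell, in Zmiz1 against control 0 were called by limma (3 had an unadjusted p under 0.05), and in Notch1+Zmiz1 against control 2 rose and 0 fell. Usp1, a deubiquitinase known to stabilize Id proteins, rose from 91.7 ± 1.47 FPKM in control to 116 ± 2.74 FPKM in Notch1 (log2 fold change 0.33, limma adjusted p = 0.00183) and to 117 ± 3.56 FPKM in Notch1+Zmiz1 (log2 fold change 0.34, limma adjusted p = 0.00117). Both Usp1 calls held without each of the 12 libraries in turn. Kat2a, an acetyltransferase gene, was the other called in Notch1+Zmiz1 against control (log2 fold change 0.35, limma adjusted p = 0.0230), a call lost in 5 of the 12 fits without 1 library. In Notch1+Zmiz1 against Zmiz1 2 rose and 0 fell, and in Notch1 against Zmiz1 2 were higher and 1 lower. In Notch1+Zmiz1 against Notch1 and in the interaction limma called 0, with 1 and 0 genes at an unadjusted p under 0.05. The median log2 fold change of the list was 0.08 in Notch1 against control and 0.11 in Zmiz1 against control, or 0.07 in the latter without Zmiz1 replicate 2. With that library left out, 3 genes rose in Notch1 against control and 3 in Notch1+Zmiz1 against control, and the counts in the other comparisons were the same.

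**Figure D5:**
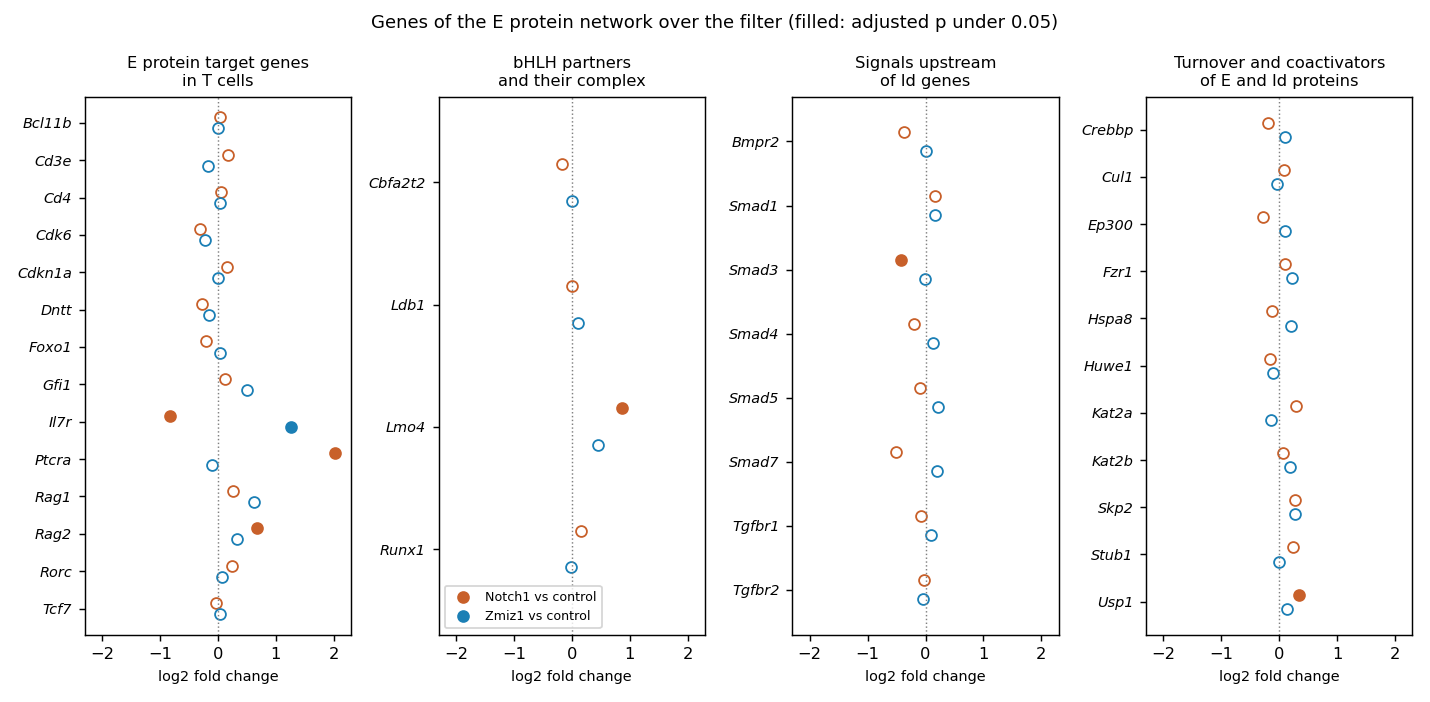
Log2 fold change of FPKM + 1 for the tested genes of the 4 lists in Notch1 against control (orange) and Zmiz1 against control (blue); filled points have an adjusted p under 0.05. Most points are open, and Ptcra, Il7r, Rag2, Lmo4, Smad3 and Usp1 carry the filled ones.

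For the 2 members called in a pairwise comparison, the genes with the most similar profile over the 12 libraries were listed, by the root mean square difference between centred log2(FPKM + 1) values over 9303 candidate genes. Nearest to Tcf12 were Mtmr12 (0.0301), Tnks2, a tankyrase gene (0.0399), and Elovl6, a fatty acid elongase gene (0.0454), against a standard deviation of Tcf12 itself of 0.135. Each was picked for its likeness to Tcf12, so a lowest mean in the Notch1 group follows from the choice. These lowest means were 60.5 FPKM for Mtmr12, 59.7 FPKM for Tnks2 and 7.12 FPKM for Elovl6. Nearest to Id1 were Xrra1 (0.173), Il12rb2, an interleukin-12 receptor gene (0.176), and Hmgb3, a chromatin protein gene (0.183), against a standard deviation of Id1 of 0.326. The Id1 neighbours were thus less close to it than the Tcf12 neighbours were to Tcf12, relative to the spread of each. These genes too were picked for likeness, to Id1, so a lowest mean in the control group follows from the choice. Mean Xrra1 FPKM was 3.35 in control, 4.56 in Zmiz1, 4.70 in Notch1 and 4.75 in Notch1+Zmiz1, with no pairwise difference called. Mean Hmgb3 FPKM was 44.5, 55.8, 56.6 and 59.9 in the same order. Hmgb3 was called against control in Zmiz1 (limma adjusted p = 0.0400), Notch1 (0.0163) and Notch1+Zmiz1 (0.00426). Mean Il12rb2 FPKM was 29.7 in control, 41.9 in Zmiz1, 40.7 in Notch1 and 52.0 in Notch1+Zmiz1. Il12rb2 was called higher in Notch1+Zmiz1 than in Zmiz1 (log2 fold change 0.31, limma adjusted p = 0.00996) and Notch1 (0.34, limma adjusted p = 0.00878). Both calls were lost without Notch1+Zmiz1 replicate 3 (limma adjusted p = 0.0565 and 0.0518). Id1 was not called in these comparisons, but its intervals, -0.21 to 0.36 and -0.20 to 0.38, included the Il12rb2 log2 fold changes. Whether Id1 and Il12rb2 differ in this was not tested.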

How the data were processed

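RNA of 12 samples of the mouse line was sequenced from TruSeq mRNA v2 libraries, a kit that does not mark strand, so reads of a gene and an antisense partner cannot be told apart. The deposited values are FPKM, 1 per gene and library, made by the authors; the submitters' processing notes give the build mm10 and the tools Cuffdiff 2.1.1, Cufflinks, TopHat2 2.0.9, FastQC 0.10.0 and Bowtie2 2.1.0.0, with no settings, and the gene annotation is not given in the sources used here. Splice forms and genes sharing reads could not be separated.

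A value of 1 was added and log2 taken; genes averaging under 1 FPKM over the 12 libraries were left out, and 10152 remained. They were fitted with limma 3.58.1 in R 4.3.3, using a mean for each of the 4 groups and moderated, intensity-dependent variances; tests were two-sided, adjusted over all genes tested, with a threshold of 0.05. A listed gene under the filter was taken from the same fit without it. All members were named, with up to 2 called genes per list by largest change in Notch1 or Zmiz1 against control and the 3 genes closest to each called member; other genes named to complete a count or contrast were chosen after their values were seen. The members and lists were chosen with earlier results of these data known. The model was tested on simulated data. Alternatives were a pseudocount of 0.1, no filter or one at 5 FPKM, median ratio scaling, quantile normalization, a replicate block, fits of the compared groups alone, a balance of the 4 most abundant members, and each library left out. Positions are from GENCODE (GRCm38, equal to mm10) and sequences from RefSeq. Python 3.11.15 with matplotlib 3.10.9 drew the plots.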

Additional observations from a re-analysis of the deposited data

How the results depend on the processing

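Of 778 comparisons of a member's value with an alternative, 752 stayed on the same side of the threshold, 17 lost the call, 9 gained one and 0 called values changed sign. Most of the 778 concern values that were not called in the main analysis, so the 752 do not measure how stable the calls are. Only a called difference can lose its call. The 17 losses were of Id1 in Notch1 and in Zmiz1 against control and of Tcf12 in Notch1 against Zmiz1. The Id1 call in Notch1+Zmiz1 against control was lost in no alternative in which Id1 was tested. Among the 752 were 28 uncalled values that changed sign, the largest of them 0.239 on the log2 scale in the main analysis. Without a filter, with a pseudocount of 0.1, with median ratio scaling and with quantile normalization the number of members called was the same in all 6 pairwise comparisons. With a filter at 5 FPKM, which left 4 members (Id1 and Tcf4 were no longer tested), 0 members were called in Notch1, Zmiz1 or Notch1+Zmiz1 against control, instead of 1. With only the compared groups fitted, 0 members were called in Notch1 against control (Id1 adjusted p = 0.0567), 0 in Zmiz1 against control (Id1 adjusted p = 0.0558), 0 in Notch1 against Zmiz1, and 3 in Notch1+Zmiz1 against control, where Id2 (limma adjusted p = 0.0115) and Id3 (limma adjusted p = 0.00150) joined Id1. The 2-group fits called 49 genes in Zmiz1 against control and 1386 in Notch1+Zmiz1 against control, beside 214 and 656 with all groups; the cause was not tested. Leaving out 1 library at a time gave 0 to 2 members called in Notch1 against control, 0 to 1 in Zmiz1 against control, 1 to 3 in Notch1+Zmiz1 against control and 0 to 1 in Notch1 against Zmiz1. With Tcf3 plus Tcf12 over Id2 plus Id3, the log2 balance in Notch1+Zmiz1 was 1.57 instead of 1.52, since Id1 and Tcf4 left the sums.

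The replicate numbers were not taken to pair the libraries, since the labels name no shared source and not every pair correlated: the deviations of same-numbered libraries from their group means correlated between -0.176 and 0.267, with 6 of 18 pairs over 0.1, although 9 of 12 libraries correlated best with one of their own number. In every group, replicate 1 had the lowest Tcf3 and Id1 levels and the highest Tcf12 level. Whether the numbers mark a shared batch was not tested. With a replicate block, 2 members were called in Notch1 against control (Id1 and Tcf12, the latter with a limma adjusted p of 0.00927), 2 in Notch1+Zmiz1 against control (Id1 and Id2, the latter 0.0263) and 1 in Notch1+Zmiz1 against Notch1 (Tcf12, 0.0432). The block raised the calls over all genes from 557 to 1059, 214 to 365 and 656 to 1158 in the 3 comparisons with control, from 392 to 721 and 153 to 260 in Notch1+Zmiz1 against Zmiz1 and Notch1, and from 1109 to 1843 in Notch1 against Zmiz1.

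With 3 libraries per group and no read counts, differences such as those of Tcf3 are bounded only by their intervals, and the precision of the low genes Id1 and Tcf4 cannot be given.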
